A study of Rattus norvegicus with 2 samples.

Results

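The 10 genes described here act in the cell division cycle: Ccnd1, Ccne1, Cdc25a, Cdkn1a, Pcna, Top2a, Ccnb1, Cdc20, Cenpf and Mki67. They were taken by name from a rat whole-genome array, and 17 of its 41012 gene probes carried one of these names (10 of 18336 gene names on the array), 3 genes with 1 probe and 7 with 2. Each probe was printed as a single spot except 1 for Cdkn1a, which had 10, so that the genes take 26 spots on each array. All 17 passed the filter on dim signals and were tested. The study set HIP rats, labelled as transgenic for human IAPP (the gene of islet amyloid polypeptide), against nondiabetic wild-type rats. Amplified cDNA of a wild-type extract, labelled with Cy3, and of a HIP extract, labelled with Cy5, was hybridised to each of 2 arrays, extracts 1 and 3 on array 1 and extracts 2 and 4 on array 2. Each probe thus had 2 ratios of HIP to wild type (n = 2 arrays), and with no dye swap a difference between genotypes cannot be told apart from a difference between dyes. The sources used here give no age, no promoter of the transgene and no tissue. No label states that the extracts came from different animals, so p-values measure only the spread between these samples. In such extracts, fewer cells of a type and less RNA per cell cannot be told apart.

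Passage through the cell cycle is driven by cyclins that bind and activate cyclin-dependent kinases (CDKs) in turn: D-type cyclins in G1, cyclin E at the start of DNA synthesis and cyclin B in mitosis. Phosphatases of the Cdc25 family switch these kinases on, and inhibitors such as p21, the product of Cdkn1a, hold them back. Most genes of DNA synthesis and mitosis are transcribed mainly in dividing cells, through E2F sites and through CHR elements, often beside CCAAT boxes. Adult islet and duct cells divide rarely, and the series title names ductal proliferation as part of its subject.

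Some of the members' promoters hold such letters. RefSeq (GRCr8) promoters were at hand for 9 of the 10 genes, and the 250 bases before the start site were searched on both strands. CCAAT was found in 7 of the 9 (Mki67, Ccnb1, Pcna, Cdc20, Cdc25a, Top2a and Cenpf), against 34% of 33469 promoters. The CHR letters TTTGAA or TTCGAA were found in 3 of the 9, against 17.4%, and the E2F letters TTTCGCGC or TTTGGCGC in Cdc25a alone, against 0.636%. The 3 promoters that hold both CCAAT and CHR letters are shown 5′ to 3′ with those letters, on either strand, in capitals. In Mki67 a CHR and a CCAAT match share a base. They lie on the minus strand at chr1:199952594-199952843 (Mki67), chr5:137255800-137256049 (Cdc20) and chr10:84473094-84473343 (Top2a).
Mki67: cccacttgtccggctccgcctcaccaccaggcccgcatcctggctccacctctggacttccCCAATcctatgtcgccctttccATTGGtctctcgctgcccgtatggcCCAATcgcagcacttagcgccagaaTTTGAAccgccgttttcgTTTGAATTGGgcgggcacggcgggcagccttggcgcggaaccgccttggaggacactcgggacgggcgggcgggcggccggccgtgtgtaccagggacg
Cdc20: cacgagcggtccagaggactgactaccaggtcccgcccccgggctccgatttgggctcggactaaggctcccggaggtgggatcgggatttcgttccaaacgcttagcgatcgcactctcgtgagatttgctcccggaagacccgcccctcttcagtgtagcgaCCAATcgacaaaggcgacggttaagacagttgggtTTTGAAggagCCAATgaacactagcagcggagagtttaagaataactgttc
Top2a: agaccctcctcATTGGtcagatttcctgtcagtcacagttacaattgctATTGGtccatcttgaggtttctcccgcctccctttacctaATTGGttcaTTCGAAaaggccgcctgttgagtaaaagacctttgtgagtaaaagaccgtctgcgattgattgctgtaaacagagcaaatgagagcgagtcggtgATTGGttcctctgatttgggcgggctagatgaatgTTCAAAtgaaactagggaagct
A match in these letters is a description of the sequence only. The probe means for Mki67 and Cdc20 were 0.70 and 0.83 on the log2 scale, and those of Top2a were -0.07 and 0.10. Whether the 3 genes differ in their ratios was not tested.

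The median gene spot lay 2.94 to 5.26 times above its local background in the 4 extracts, and 73.6% to 85% of 43379 gene spots were well above it, with 0 saturated. Of 1116 probes for olfactory receptors, 77.4% to 90.1% were well above background too, so a spot above background was not taken as a sign of expression. Signals below are the scanner's processed intensities, and ratios are loess-normalized log2 values of HIP over wild type, positive where HIP is higher.

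No cell cycle probe passed the test between HIP and wild type, and the directions of the 17 probes were mixed. With 2 ratios per probe the test passed 0 of all probes, so it does not show that these genes are unchanged. By limma with Benjamini-Hochberg adjustment over all 33651 probes tested, 0 of the 17 passed at 0.05 (0% of all probes), with adjusted p between 0.942 and 1. At an unadjusted threshold of 0.05, 1 of the 17 passed in limma, against 3.27% of all probes. The median of the 17 mean log2 ratios was -0.07, against 0.02 over all probes. Of the 17 probes, 6 were higher in HIP on both arrays (26.9% of all probes), 4 were lower on both (22.9%) and 7 had a different sign on the arrays (50.2%). Past 2-fold on both arrays, 0 of the 17 were higher in HIP (2.57% of all probes) and 1 was lower (2.44%), while 1 was past 2-fold in opposite ways (5.43%). On array 1 alone 6 of the 17 were at least 2-fold apart (30.5% of all probes), and on array 2 alone 5 (28.0%). At least 1 array showed 2-fold or more for 9 of the 17, against 48.0% of all probes. These shares lie near the background and are no result about the cell cycle genes.

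**Figure D1:**
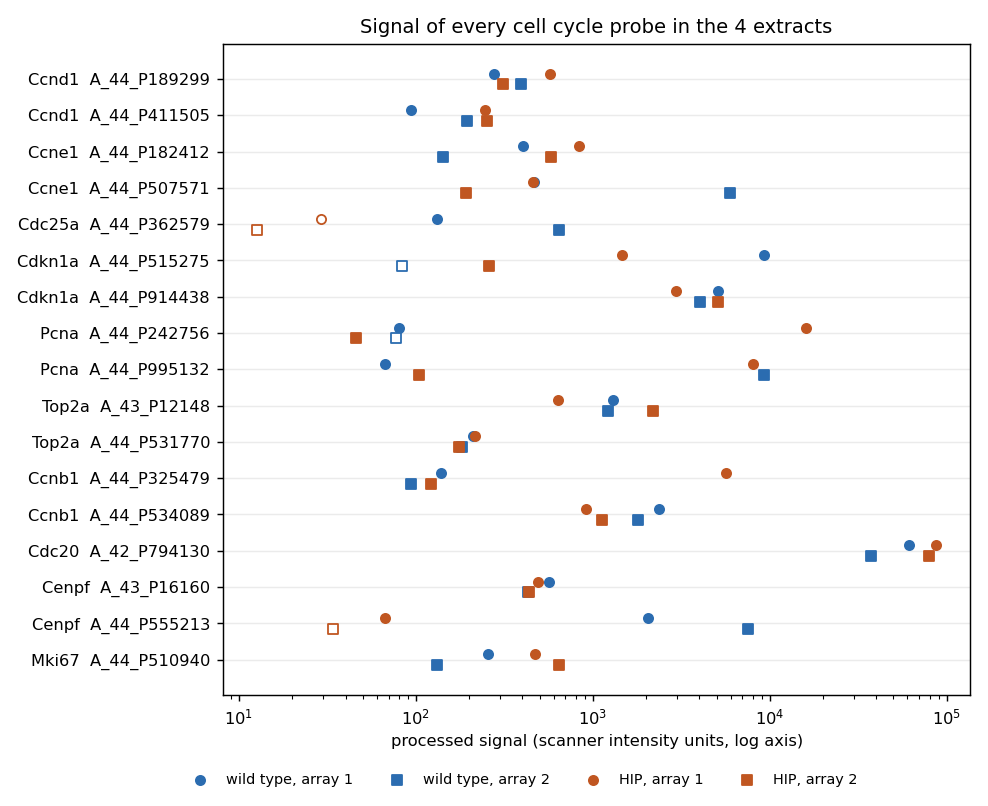
Processed signal (x axis, log scale, scanner intensity units) of each of the 17 probes (rows) in the wild-type and HIP extracts of array 1 (circles) and array 2 (squares). Open symbols mark a spot not well above background, as in HIP for Cdc25a at 28.9 and 12.6, and the Pcna probes have 1 or 2 high extracts with the others at 104 or below.

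Cyclins and Cdc25a start the cycle. Ccnd1 encodes cyclin D1, which couples growth signals to CDK4 and CDK6. Probe A_44_P189299 for Ccnd1 read 276 in wild type 1 and 573 in HIP 1, and 394 in wild type 2 and 311 in HIP 2. Its log2 ratio was 0.44 on array 1 and -0.11 on array 2 (mean 0.16 ± 0.39, SD, n = 2 arrays). Probe A_44_P411505 read 93.9 and 245 on array 1, and 194 and 251 on array 2, wild type first. Its ratios of 0.43 and 0.24 (mean 0.34 ± 0.13) had the same sign on both arrays and stayed under 2-fold. The limma interval of the mean (95%) ran from -0.97 to 1.64, so a change of 2-fold up lay within it.

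Ccne1 encodes cyclin E1, the partner of CDK2 at the entry into S phase, and its probes disagreed. Probe A_44_P182412 read 403 in wild type 1 and 838 in HIP 1, and 143 in wild type 2 and 580.3 in HIP 2. HIP was higher on both arrays, as for 26.9% of all probes. The log2 ratios were 0.62 and 0.89 (mean 0.75 ± 0.19, limma adjusted p = 0.942). Probe A_44_P507571 read 467 and 459.9 on array 1, but 5923 in wild type 2 and 192 in HIP 2. Wild type 2 alone was high, and the ratio was -0.14 on array 1 and -3.73 on array 2 (mean -1.93 ± 2.54).

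Cdc25a encodes the phosphatase that removes inhibitory phosphate from CDK2 and CDK1. Its probe read 132 in wild type 1 and 645 in wild type 2, against 28.9 in HIP 1 and 12.6 in HIP 2. Both wild-type spots were well above background and neither HIP spot was, so the probe passed the filter through wild type alone. Passing in that way favours a lower value in HIP, which by itself is thus no support for a difference. By loess-normalized ratio HIP was lower on both arrays, as were 22.9% of all probes. After loess the ratios were -0.40 and -1.40 (mean -0.90 ± 0.71, limma adjusted p = 0.942), while the scanner's own ratios, which add no offset to dim spots, were -2.19 and -5.68. With the offset but before normalization the ratios were 0.00 and -0.75, against medians of 0.78 and 1.19 over all probes. Relative to the median of all probes with median centring, the mean was -1.36. The size of the difference thus depended on the processing. The limma interval of the loess mean ran from -2.56 to 0.76 and holds no change.

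The CDK inhibitor gene Cdkn1a, a target of p53, had the most spots of the set. Probe A_44_P914438 averaged 5100.5 in wild type 1 and 2942 in HIP 1, and 4018 in wild type 2 and 5128 in HIP 2. Its 10 spots gave log2 ratios between -0.79 and -0.71 on array 1 (SD 0.03) and between 0.20 and 0.47 on array 2 (SD 0.08). Every spot was below 0 on array 1 and above 0 on array 2. The spots of a probe thus agreed far more closely than the arrays did: the means of -0.75 and 0.39 gave -0.18 ± 0.81 (SD, n = 2 arrays), or 0.32 relative to the median of all probes with median centring. Over the 217 tested probes with 10 spots, the median SD between spots was 0.08 on each array.

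Probe A_44_P515275 for the same transcript read 9271 and 1453 on array 1, but 83.1 and 259.9 on array 2, wild type first. Wild type 2 was not well above background there, although the other Cdkn1a probe read 4018 in that extract. Its ratios were -2.49 and 0.50 (mean -0.99 ± 2.11, limma adjusted p = 0.946). The sign was thus the same as for the first probe on each array, with a larger size on array 1.

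**Figure D2:**
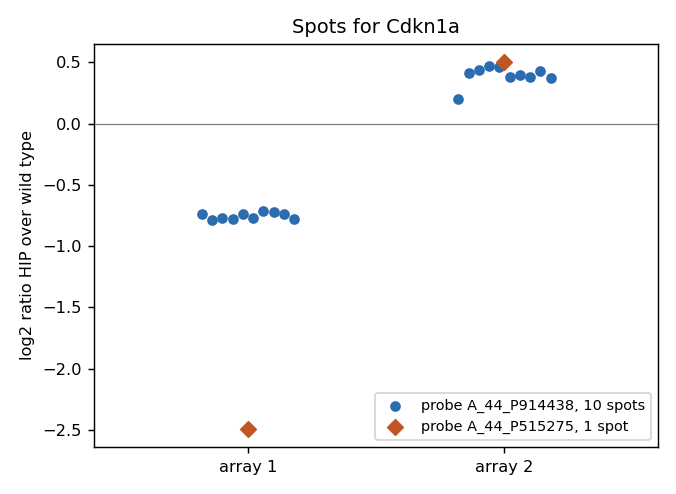
Log2 ratio of HIP over wild type (y axis) on array 1 and array 2 for the 10 spots of 1 Cdkn1a probe (circles) and the single spot of the other (diamonds). Spots of a probe cluster within each array, between -0.79 and -0.71 and between 0.20 and 0.47, and lie on opposite sides of 0.

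Among the genes of DNA synthesis, Pcna encodes the sliding clamp of DNA polymerase, and its probes differed more between the arrays than any other of the 17 by SD. Probe A_44_P242756 read 80.5 in wild type 1 and 16060.1 in HIP 1, against 77 in wild type 2 and 46.1 in HIP 2. HIP 1 alone was high, with log2 ratios of 5.30 and -0.06 (mean 2.62 ± 3.78, limma adjusted p = 0.942). Without array 1 the mean is the -0.06 of array 2. Wild type 2 was not well above background for this probe. Probe A_44_P995132 read 66.7 and 8068 on array 1, but 9330.1 in wild type 2 and 104 in HIP 2. High signal was thus seen in HIP on array 1 and in wild type on array 2, and the ratios of 4.18 and -4.83 cancelled to -0.32 ± 6.38. The limma interval of that mean ran from -9.74 to 9.09. Of all probes tested, 4.47% were at least 16-fold apart on 1 array or more, as were 3 of the 17 here, the Pcna probes and a Cenpf probe.

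The array also holds probes for loci described as similar to Pcna, which were looked at after the values were known. Probe A_44_P538816 (RGD1560931) read 549 and 17730.1 on array 1, and 827 and 344 on array 2, with ratios of 4.26 and -0.76. Probe A_44_P513706 (LOC299084) had ratios of 0.52 and 0.59. Which transcripts bind each probe cannot be told here, as probe sequences were not used, so values of Pcna and of such copies are uncertain.

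Top2a encodes topoisomerase II alpha, which untangles chromosomes before they part. Probe A_43_P12148 read 1306 and 639 on array 1 but 1213 and 2199 on array 2, wild type first. Its ratios of -0.91 and 0.77 gave a mean of -0.07 ± 1.19, or 0.23 relative to the median of all probes with median centring. Probe A_44_P531770 read 209 and 182 in the wild-type extracts and 217 and 175 in HIP. These 4 values lay close together, and the ratio was 0.05 and 0.14 (mean 0.10 ± 0.06), with the opposite sign (-0.25) relative to the median of all probes with median centring.

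Among the mitotic genes, Ccnb1 encodes cyclin B1, the partner of CDK1. Probe A_44_P325479 read 138 and 5657 on array 1, but 93.4 and 122 on array 2, wild type first. HIP 1 stood alone, and the ratios were 3.72 and 0.14 (mean 1.93 ± 2.53). Without array 1 the mean is 0.14. Probe A_44_P534089 read 2367 in wild type 1 and 1795 in wild type 2, against 919 in HIP 1 and 1128 in HIP 2. Here HIP was lower on both arrays, as for 22.9% of all probes. The ratios were -1.23 and -0.40 (mean -0.82 ± 0.59, limma adjusted p = 0.942). The probes for this gene therefore gave means of opposite sign.

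Cdc20 encodes an activator of the anaphase-promoting complex, the ubiquitin ligase that ends mitosis. Its probe read 60885 in wild type 1 and 37294 in wild type 2, against 87489.8 in HIP 1 and 79732 in HIP 2. HIP was higher on both arrays, as for 26.9% of all probes. The ratios were 0.55 and 1.10 (mean 0.83 ± 0.39, limma adjusted p = 0.942). Before any normalization the ratios were 2.30 and 2.83, against medians of 0.78 and 1.19 over all probes, and the mean was 1.58 relative to the median of all probes with median centring.

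Cenpf encodes a large kinetochore protein made in G2 and mitosis. Probe A_44_P555213 read 2050.1 in wild type 1 and 7537 in wild type 2, but 67.3 in HIP 1 and 34 in HIP 2. The HIP extracts were far below the wild-type extracts, and HIP 2 was not well above background. HIP was thus well above background on array 1 only, so the size of the ratio on array 2, and of the mean, is uncertain. On array 2 the probe passed the filter through wild type alone, which favours a lower value in HIP. The ratios of -2.88 and -4.70 gave -3.79 ± 1.28 (limma unadjusted p = 0.0145, adjusted p = 0.942). It was the only cell cycle probe among the 17 past 2-fold the same way on both arrays, as 2.44% of all probes were in that direction. Probe A_43_P16160 for the same transcript read 563 and 430.0 in wild type and 490.4 and 433 in HIP. Its 4 signals lay close together, with ratios of -0.19 and 0.04 (mean -0.08 ± 0.17).

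Mki67 encodes Ki-67, the antigen by which dividing cells are stained. Its probe read 254 in wild type 1 and 131 in wild type 2, against 472 in HIP 1 and 647 in HIP 2. HIP was higher on both arrays, as for 26.9% of all probes. The ratios were 0.45 and 0.95 (mean 0.70 ± 0.36, limma adjusted p = 0.942). The limma interval from -0.70 to 2.09 holds both no change and a 2-fold change. A probe for a locus described as similar to Ki-67 (RGD1566252, A_44_P530196), which lists the same transcript among its accessions, was looked at after the values were known. It read 3496 and 409 on array 1 but 445 and 14505 on array 2, wild type first, with ratios of -2.65 and 3.99. The sign of that probe thus changed between the arrays while the Mki67 probe did not change sign.

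**Figure D3:**
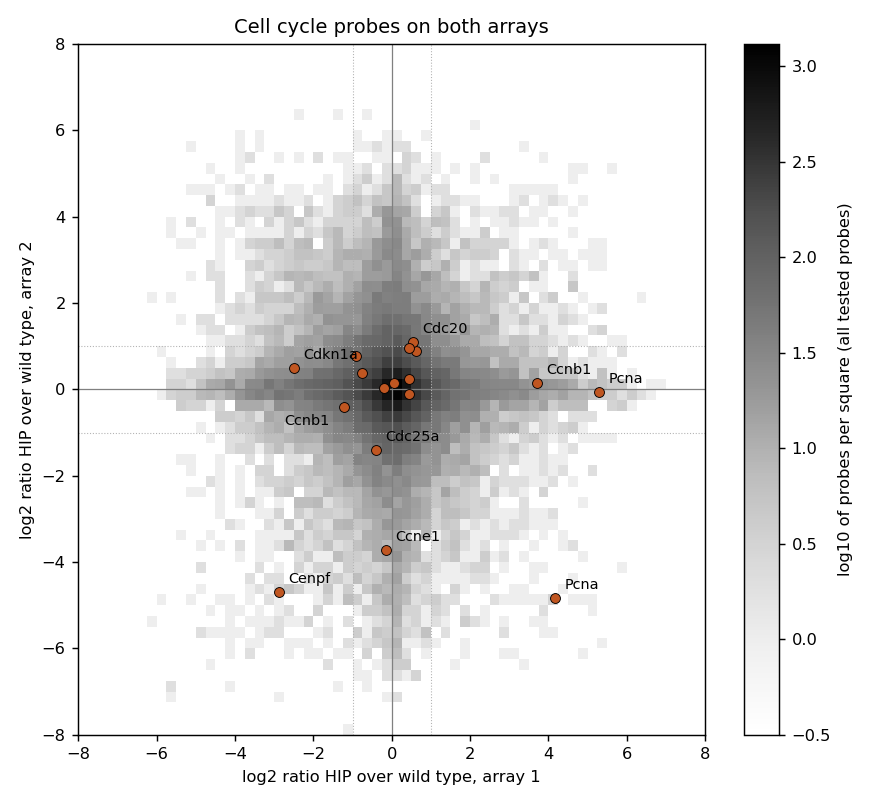
Log2 ratio of HIP over wild type on array 1 (x axis) against array 2 (y axis), with the 17 cell cycle probes as points over the density of all 33651 tested probes, and dotted lines at 2-fold. Genes with a ratio past 2-fold are named, and of these only Cenpf lies past 2-fold the same way on both arrays while a Pcna probe lies in the opposite corner at 4.18 and -4.83.

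Genes with 2 probes allow the arrays to be read against themselves. For 7 member genes both probes lie on the same strand of the array design's genome positions, whose build is not given, between 0.206 kb (Ccnb1) and 8.95 kb (Cenpf) apart, introns included. The probes of a gene had the same sign for 4 of 7 genes on array 1 and 3 of 7 on array 2, and for 2 of 7 (Cdkn1a and Pcna) on both. The median distance between the log2 ratios of a gene's probes was 1.11 on array 1 and 0.64 on array 2. Over the 2569 named genes with exactly 2 tested probes, members included, the medians were 0.88 and 0.84, and 52.4% and 50.5% of genes had the same sign. A single probe differed between the arrays by a median of 0.91 in those genes. Where both probes of a gene were past 2-fold on array 1 (285 genes), 63.9% had the same sign, and on array 2 (227 genes) 59.5%. The largest gap of the 7 was that of Ccnb1 on array 1 (4.95), and its probes lie closest together. The probe nearer the 3′ end had the ratio of larger size for 3 of 7 genes on each array, Ccnd1, Ccnb1 and Cenpf on array 1 and Ccne1, Pcna and Cenpf on array 2.

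**Figure D4:**
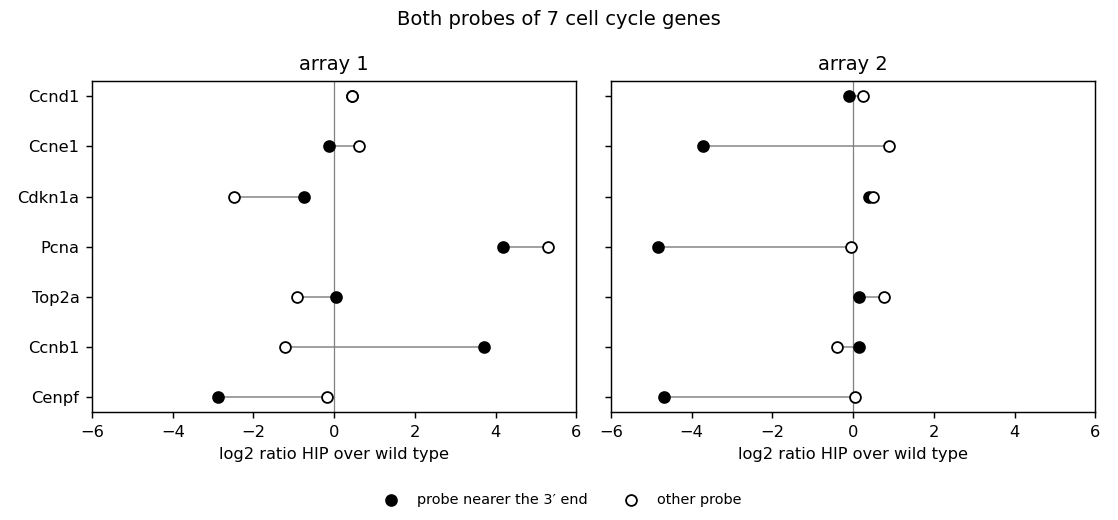
Log2 ratio of HIP over wild type (x axis) for both probes of 7 genes on array 1 (left) and array 2 (right). Filled points are the probe nearer the 3′ end and lines join the probes of a gene, with the longest line for Ccnb1 on array 1 (4.95) and lines of 4.61 to 4.78 for Ccne1, Cenpf and Pcna on array 2.

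The wider cell cycle list of 183 genes, members included, behaved much like its members. On the array 167 of these genes had 236 probes, and 193 probes of 145 genes were tested. In the limma fit 0 of 193 passed (0% of all probes), and 4 had an unadjusted p under 0.05 (3.27% of all probes). The median of the mean ratios was -0.02. Signs were the same and higher in HIP for 50 probes, lower for 48 and different for 95. Past 2-fold on both arrays, 5 probes were higher in HIP (2.57% of all probes) and 2 were lower (2.44%). Another 12 went opposite ways (6.22%, against 5.43% of all). Without the 10 members these counts were 5, 1 and 11 of 176.

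Over all tested probes 26.9% were higher on both arrays, 22.9% lower and 50.2% of different sign. With so few probes a role, the counts below were not tested against these shares. Genes named below were picked because a probe was past 2-fold the same way on both arrays, so they are not typical of their roles. By role, origin licensing and DNA replication genes, which load and run the replication fork, had 15 of 52 probes higher on both arrays, 13 lower and 24 of different sign. Orc2, a subunit of the origin recognition complex, had 1 probe (A_44_P408504) that read 5762 and 478 in wild type and 26029 and 6959 in HIP, a mean of 2.55 ± 0.57. Its other probes gave 0.74 and -0.65, and -0.13 and -0.63, on arrays 1 and 2. Mitotic kinase, spindle and checkpoint genes had 5 of 27 probes higher, 12 lower and 10 of different sign. The median of their mean ratios was -0.28, the lowest among the roles. It was -0.01 on array 1 and -0.29 on array 2, so the lower median was seen on array 2 only. The checkpoint kinase gene Ttk stood at -1.35 and -1.64 on 1 probe (A_44_P1056100) and at -0.06 and -1.65 on the other. Among the CDK inhibitors 4 of 13 probes were higher on both arrays, 2 were lower and 7 differed in sign. Cdkn2b, which encodes the CDK4 and CDK6 inhibitor p15, read 4528 and 15154 in wild type and 11886 and 44143 in HIP, with a mean of 1.43 ± 0.13. Cdkn3, a phosphatase that acts on CDKs, read 202 and 159 in wild type and 1047 and 784 in HIP, with a mean of 1.19 ± 0.22. None of these genes passed the test (limma adjusted p = 0.942 for each).

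Cyclins, CDKs and their phosphatases had 8 of 29 probes higher, 10 lower and 11 of different sign, and 0 were 2-fold apart the same way. Rb, E2F and related transcription factors had 3 of 18 higher, 1 lower and 14 of different sign. For kinetochore genes these counts were 4, 1 and 8 of 13, for the anaphase-promoting complex 4, 2 and 11 of 17, and for condensin and cohesin 4, 3 and 5 of 12. Among p53 and damage checkpoint genes they were 2, 4 and 5 of 11. Chek2, a checkpoint kinase gene of that group, read 105 and 19548 on array 1 and 174 and 944 on array 2, wild type first. Its ratios were 5.41 and 1.26 (mean 3.34 ± 2.93, limma adjusted p = 0.942), with HIP 1 far above the other extracts.

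**Figure D5:**
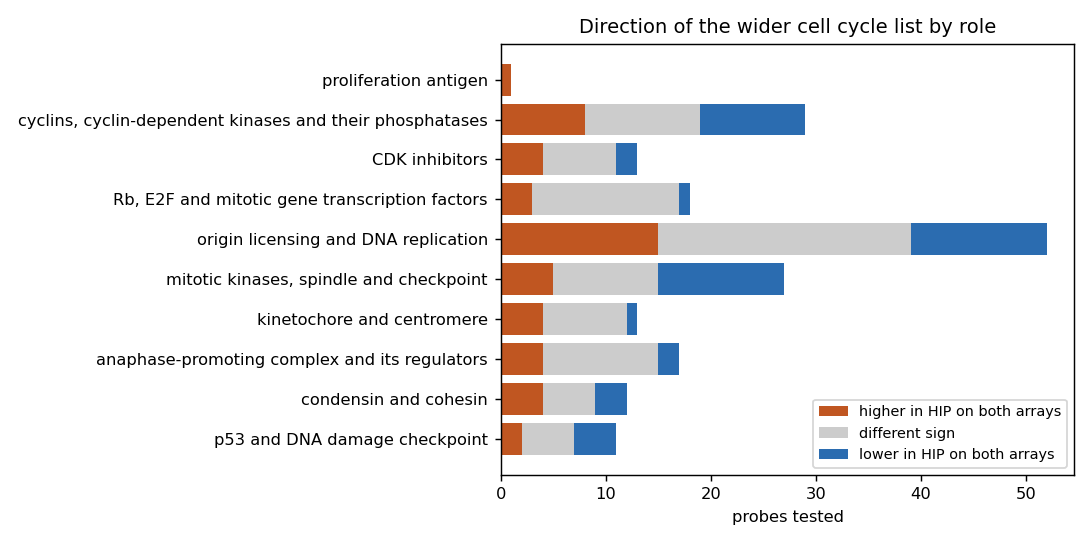
Number of tested probes (x axis) in each role of the wider cell cycle list, split by direction on the 2 arrays. Probes of different sign make up 95 of the 193, and no role holds probes of a single direction other than the 1 probe of Mki67.

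Markers of cells that an extract of pancreas could hold were set beside these values. Of 41 genes in 6 lists, 40 were on the array, and of their 49 tested probes 0 were at least 2-fold higher on both arrays (2.57% of all probes), 3 were lower (2.44%) and 3 went opposite ways (5.43%). Summed signals of 8 ductal markers were 71341 and 35628 in wild type and 19513 and 18945 in HIP. Those of 7 islet endocrine markers were 147299 and 238739 in wild type and 86471 and 111523 in HIP, those of 8 acinar markers 21766 and 76853 against 15951 and 69901, and those of 8 leukocyte markers 16309 and 41669 against 18101 and 13925. The median log2 ratios of these 4 lists on arrays 1 and 2 stood nearer 0 than the ratios of the sums or had the opposite sign. They were -0.31 and -0.27 for ductal markers, 0.13 and -0.85 for islet markers, 0.20 and 0.12 for acinar markers and 0.10 and -0.16 for leukocyte markers. Fibroblast and endothelial sums ran from 20858 to 30672 and from 4370.1 to 9799 over the 4 extracts, with medians of 0.04 and -0.16, and of -0.37 and 0.02. The part of these cell types in the ratios of cell cycle genes was not tested.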

How the data were processed

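Scans of both two-colour arrays (Agilent rat design 014879) were read into spot values with Agilent's Feature Extraction (version 9.5.1.1 in the file headers). Deposited files give each spot's mean and background intensity as scanned, and a processed intensity that was background-subtracted, detrended and dye-normalized, per the file headers. Their log10 ratio sets processed Cy5 over processed Cy3, and their p-value describes 1 spot on 1 array, per the file headers. Per the labels, cDNA was amplified by a global PCR, which can change the proportions of transcripts. No source used here gives the genome build behind the probe coordinates.

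Intensities were corrected with normexp (offset 50), loess-normalized within arrays with controls at weight 0, and converted to log2 of HIP over wild type with limma 3.58.1 in R 4.3.3. Control spots and spots marked as outliers were dropped and spots of a probe averaged. The 33651 of 41012 probes (82.1%) whose signal was well above background in 1 dye or both, on each array, were tested against 0 by lmFit and eBayes (two-sided test, residual degrees of freedom 1, prior 1.7 degrees of freedom and SD 0.68), with Benjamini-Hochberg adjustment. The fit was run on simulated ratios with planted changes, at the observed spread and at a smaller one. Recovery of the planted changes was required only at the smaller spread, so the run does not show what the test could call here. Both arrays share 1 slide, per the file headers, so no batch could be tested.

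Of the probes, 20090 were named through RefSeq (GRCr8) by accession, symbol or synonym. From the wider list, up to 2 probes per direction and role were named among those at least 2-fold the same way on both arrays and well above background in every extract, which were 5. The members, lists and tests were chosen with earlier results of these data known. Alternatives were background correction, normalization, filter, priors, 1 probe per gene, separate channels, the deposited table and each array alone.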

Additional observations from a re-analysis of the deposited data

How the results depend on the processing

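Across 13 other settings the limma count of probes past the threshold remained 0, with 550 to 5588 probes at an unadjusted p under 0.05 and a smallest adjusted p between 0.29 and 1. Among them were the 4 channels as separate samples, without the pairing by array (no replicate block, count 0). With 2 arrays, depth here means signal over background and the number of arrays, and both limit the precision.

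The count of the 17 member probes at least 2-fold the same way on both arrays (1) was 3 with the scanner's processed ratios, 2 with median centring, 5 without normalization, 0 of 13 where both dyes had to be well above background, 2 of 11 in the authors' deposited table and 2 at a 1.5-fold threshold. Array 1 or array 2 alone gave 6 and 5. For the wider list (7), the counts were 14, 14 and 45 in the first 3 of these settings, 11 of 148 in the authors' deposited table, 14 at 1.5-fold and 2 at 3-fold, and 41 to 63 on a single array. Of all probes 2-fold the same way, 51.3% were higher in HIP after loess, 84.4% with median centring and 98.1% without normalization, settings whose median log2 ratios were 0.15 and 0.24, and 0.78 and 1.19, on arrays 1 and 2. By the scanner's ratios the 3 member probes were Ccne1 A_44_P182412 (1.06 and 2.02), Cdc25a (-2.19 and -5.68) and Cenpf A_44_P555213 (-4.93 and -7.79). In the deposited table they were Ccne1 A_44_P182412 and Cdc25a, and that Cenpf probe has no entry there.

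Of 143 mean ratios of member probes under these settings, 133 kept their sign and 10, for 5 probes, did not. Requiring both dyes, dropping the filter and keeping outlier spots returned the main values for these probes, so no sign could change there. Median centring and no normalization gave equal values relative to the median of all probes. The 133 is thus no measure of how stable the signs are. Relative to the median of all probes, both median centring and no normalization turned Cdkn1a A_44_P914438 to 0.32, Top2a A_43_P12148 to 0.23 and Top2a A_44_P531770 to -0.25. The scanner's processed ratios turned Pcna A_44_P995132 to 0.22 and Top2a A_44_P531770 to 0.00. In the authors' deposited table Top2a A_43_P12148 was 0.01 and Ccnb1 A_44_P325479 was -0.31. That table holds 11 entries for these genes, of which 5 equal the scanner ratio of the named probe within 0.001 (log2) and 6 do not. How those 6 were made is not known, and the cause of the other changes was not tested. With each array alone, single values ranged from -0.11 to 0.44 for Ccnd1 A_44_P189299, -2.49 to 0.50 and -0.75 to 0.39 for Cdkn1a, -0.06 to 5.30 and -4.83 to 4.18 for Pcna, -0.91 to 0.77 for Top2a A_43_P12148 and -0.19 to 0.04 for Cenpf A_43_P16160.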
